A study of Mus musculus with 41 samples.

Results

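Peaks of histone H3 lysine 18 lactylation (H3K18la) were compared with peaks of histone H3 lysine 27 trimethylation (H3K27me3) in cultured mouse myoblasts (MB), at promoters, between peaks across the genome, and gene by gene. The comparison used 2 of the 41 mouse CUT&Tag libraries of the series, 1 library for each mark. Each annotated gene was placed in 1 of 4 promoter states by whether a peak of H3K18la, of H3K27me3, of both or of neither overlapped the 2000 bp on either side of any of its annotated transcription start sites (TSS) in mm10. Of 53843 genes on chromosomes 1 to 19 and X, 8536 (15.9%) carried at least 1 mark by this rule.

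The study profiled H3K18la beside other histone marks in stem cells, cultured muscle cells, macrophages, adipocytes and skeletal muscle of the mouse by CUT&Tag, where antibody-tethered transposase inserts sequencing adapters into DNA near the mark. Both MB libraries came from nuclei of primary myoblasts of C57BL/6 mice, grown in DMEM mixed with Ham's nutrient medium, serum and basic FGF and labelled control. The study's methods give female C57Bl6/J mice for its animals, apart from the AdipoCre-NuTRAP mice used for adipocytes. The mice from which the myoblasts came are not described on their own. Both used the same buffers, which held sodium butyrate, an inhibitor of histone deacetylases. Because each mark had 1 library, no spread between replicates could be measured, no difference was tested, and the intervals printed here are 95% Wilson intervals for counting error only. H3K18la is an acyl mark formed from lactate that is found at active promoters and enhancers. H3K27me3 is laid down by Polycomb repressive complex 2 and covers the CpG-rich promoters of silent developmental genes, often in broad domains such as those over Hox clusters. Myoblasts are dividing muscle precursors held in the muscle lineage by Myf5 and Myod1, and they leave the cycle and fuse to form myotubes (MT) when differentiation starts.

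The H3K18la list held 13550 peaks on these chromosomes, covering 40.5 Mb, and the H3K27me3 list 13892 peaks covering 54.8 Mb. Median widths were 2410 bp for H3K18la and 2710 bp for H3K27me3, and the widest peaks were 24899 bp and 97610 bp. The maximum signal of a peak, its highest fragment coverage, had a median of 138 in the H3K18la list and 23.0 in the H3K27me3 list. Coverage was not scaled for depth, so signal is compared only within a list, and a promoter without a peak is one below the calling threshold, not one shown to lack the mark. Chromosome 2 held 15.5% of the bases called for H3K27me3 and 9.95% of those called for H3K18la, against 6.91% of the genome. Values without chromosome 2 are given for gene counts, peak overlap, shared bases and distances. All other results, among them the rankings by signal and width, include it. The part of this excess in the results was not tested. At the markers of the labelled cell type, 7 of 8 myoblast markers carried H3K18la and the other, Pax7, carried H3K27me3. H3K18la lay at 1 of 6 fibroblast markers (Thy1) and 1 of 5 endothelial markers (Pecam1). It lay at none of 6 macrophage, 4 adipocyte and 5 stem cell markers. H3K27me3 lay at 2 fibroblast, 2 adipocyte, 2 stem cell, 1 macrophage and 1 endothelial marker. Of all protein-coding genes, 11.1% had H3K18la and 12.5% had H3K27me3. The panels of other cell types are too short to be told apart from these shares. In a longer list of extracellular matrix and fibroblast genes, 26 of 42 were H3K18la-only.

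The sequences below are examples of promoters with each mark. They are RefSeq promoters (GRCm38.p6, the same assembly as mm10), from 250 bases before to 50 bases after the start, read 5′ to 3′ on the strand of the gene, with every CG dinucleotide in capitals. Myf5 and Id3 carried H3K18la alone, Pax7 and Hoxd13 carried H3K27me3 alone, and the pair from Frmd4a comes from 1 gene with H3K27me3 at an upstream start and H3K18la at a downstream start.
Myf5 (H3K18la), chr10:107486085-107486384, minus strand: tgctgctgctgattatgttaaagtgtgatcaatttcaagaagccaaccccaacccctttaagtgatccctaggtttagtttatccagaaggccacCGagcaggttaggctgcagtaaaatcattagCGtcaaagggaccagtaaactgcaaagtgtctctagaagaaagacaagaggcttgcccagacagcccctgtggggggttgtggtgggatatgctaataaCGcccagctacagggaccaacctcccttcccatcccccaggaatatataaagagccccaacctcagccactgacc
Id3 (H3K18la), chr4:136143572-136143871, plus strand: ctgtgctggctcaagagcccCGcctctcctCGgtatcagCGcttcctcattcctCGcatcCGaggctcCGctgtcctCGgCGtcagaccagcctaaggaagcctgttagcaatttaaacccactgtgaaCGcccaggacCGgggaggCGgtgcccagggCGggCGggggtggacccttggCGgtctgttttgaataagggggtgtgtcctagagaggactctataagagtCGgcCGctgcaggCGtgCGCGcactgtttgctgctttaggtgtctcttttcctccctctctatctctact
Pax7 (H3K27me3), chr4:139832919-139833218, minus strand: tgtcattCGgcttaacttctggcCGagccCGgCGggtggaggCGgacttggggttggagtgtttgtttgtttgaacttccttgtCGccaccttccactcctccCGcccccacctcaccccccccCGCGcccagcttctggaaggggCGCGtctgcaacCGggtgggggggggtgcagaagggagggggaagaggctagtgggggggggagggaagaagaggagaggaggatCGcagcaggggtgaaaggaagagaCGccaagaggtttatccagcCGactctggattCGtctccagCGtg
Hoxd13 (H3K27me3), chr2:74667975-74668274, plus strand: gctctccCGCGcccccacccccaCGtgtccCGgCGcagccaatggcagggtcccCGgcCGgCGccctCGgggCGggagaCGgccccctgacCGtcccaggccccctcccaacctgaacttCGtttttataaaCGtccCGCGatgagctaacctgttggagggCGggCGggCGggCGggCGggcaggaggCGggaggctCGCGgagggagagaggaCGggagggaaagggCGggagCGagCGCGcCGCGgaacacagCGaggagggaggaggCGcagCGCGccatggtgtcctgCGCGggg
Frmd4a upstream start (H3K27me3), chr2:4152613-4152912, plus strand: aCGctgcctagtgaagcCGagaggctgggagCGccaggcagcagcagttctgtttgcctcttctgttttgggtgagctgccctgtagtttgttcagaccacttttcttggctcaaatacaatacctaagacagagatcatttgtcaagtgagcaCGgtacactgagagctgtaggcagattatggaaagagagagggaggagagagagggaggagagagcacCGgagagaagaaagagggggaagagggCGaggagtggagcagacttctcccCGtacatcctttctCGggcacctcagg
Frmd4a downstream start (H3K18la), chr2:4559504-4559803, plus strand: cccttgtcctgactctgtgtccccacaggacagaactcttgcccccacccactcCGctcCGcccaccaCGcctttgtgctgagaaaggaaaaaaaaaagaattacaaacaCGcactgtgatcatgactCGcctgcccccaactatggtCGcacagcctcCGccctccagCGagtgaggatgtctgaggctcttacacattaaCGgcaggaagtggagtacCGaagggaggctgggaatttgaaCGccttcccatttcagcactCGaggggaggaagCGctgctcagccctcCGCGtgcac
The printed bases of Myf5, Id3 and both starts of Frmd4a lay under a peak of the mark named, whereas the peak of Hoxd13 lay 61 bp from them and that of Pax7 1360 bp from them. The 300 bases of Hoxd13 held 37 CG dinucleotides, those of Id3 19, those of Pax7 17 and those of Myf5 3. At Frmd4a the upstream start held 8 and the downstream start 15. These promoters were picked, and their counts stand for no class of genes.

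Most promoters of MB had no peak of either mark, and few of the marked ones had both. H3K18la alone was found at 3991 genes (7.41%, interval 7.19 to 7.64%), H3K27me3 alone at 4436 genes (8.24%, 8.01 to 8.47%), both at 109 genes (0.202%, 0.168 to 0.244%) and neither at 45307 genes (84.1%). If the marks had been placed on genes without regard to each other, the product of their shares would give 346 genes with both. Among protein-coding genes alone, 2336 (10.7%) were H3K18la-only, 2644 (12.2%) were H3K27me3-only and 85 (0.391%) carried both, against 304 from the product of the shares. Of the genes with an H3K18la promoter peak, 2.66% (2.21 to 3.20%) also had H3K27me3, and of those with H3K27me3, 2.4% (1.99 to 2.88%) also had H3K18la. Without chromosome 2, 3638 genes were H3K18la-only, 3899 H3K27me3-only and 87 carried both. Chromosome 2 held 22 of the 109 genes with both marks, and 14.1% of its genes were H3K27me3-only.

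CpG islands were more common at TSS with either mark than at TSS at large. Of the windows around TSS of protein-coding genes, 62.9% of 7644 with H3K18la and 57.8% of 7233 with H3K27me3 held an island, against 47.5% of all. Counted by gene, an island lay at the marked TSS in 60.4% (58.4 to 62.3%) of H3K18la-only and 60.9% (59.0 to 62.7%) of H3K27me3-only protein-coding genes, and under the promoter peak itself in 50.5% and 53%. Counted at any TSS of the gene, marked or not, an island was present at 74.8% (73.0 to 76.5%) of H3K18la-only protein-coding genes, of 64.8% (63.0 to 66.6%) of H3K27me3-only genes and of 80% (70.3 to 87.1%) of genes with both, against 58.2% of all protein-coding genes. With the 5000 strongest peaks of each list, the classes with 1 mark stood at 72.0% and 71.6%. Read the other way, 13.8% of 12665 genes with an island at any TSS were H3K18la-only and 13.5% H3K27me3-only. At genes without an island, H3K18la alone was found at 6.48% and H3K27me3 alone at 10.2%. Over all peaks, 8.86% of the H3K18la list and 13.2% of the H3K27me3 list met an island. Within the H3K27me3 list, peaks over an island were broader and higher, with a median width of 5144 bp and a median maximum of 39, against 2567 bp and 22 for the rest. Within the H3K18la list the widths were 2702 and 2384 bp, and the maxima went the other way, at 108 over islands and 142 elsewhere. The number of starts also differed between the classes, with a median of 5 TSS in H3K18la-only genes, 3 in H3K27me3-only genes and 7 in genes with both. The share of protein-coding genes with both marks was 0.146% at genes with 1 TSS and 1.20% at genes with 8 or more.

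Among transcription factors of the muscle lineage, more genes carried H3K18la than H3K27me3. Of 35 myogenic transcription factors, 15 were H3K18la-only, 4 H3K27me3-only, none carried both and 16 neither (42.9% and 11.4% with 1 mark alone, against 10.7% and 12.2% of all protein-coding genes). The largest H3K18la promoter peak had a total signal, the coverage summed over its bases, of 111507 at Myod1 and 81096 at Myf5, the factors that commit cells to muscle. Six4 and Eya1, which act upstream of them, had 91547 and 156604. Id1, Id2 and Id3, whose proteins bind E proteins and hold back MyoD, had 867647, 270390 and 257778, and Id1 was among the 10 genes with the strongest H3K18la promoter peaks of the whole list. The median over the 15 marked members was 111507, against 63108 over all protein-coding genes with H3K18la. H3K27me3 marked Pax7, the transcription factor of satellite cells (68987), with Eya2 (49699), Hey2 (25234) and Mef2b (11066), against a median of 43633 over all protein-coding genes with H3K27me3. Myog, Myf6, Pax3 and Mef2c had neither peak.

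Of 30 surface and signalling genes of myoblasts, 15 were H3K18la-only, 3 H3K27me3-only and 12 neither (50% and 10% with 1 mark alone, against 10.7% and 12.2% of all protein-coding genes). The H3K18la genes included Sdc4, a syndecan of satellite cells (616420), the laminin receptor subunit Itga7 (397889), Cd82 (381616), the HGF receptor Met (178324) and M-cadherin, Cdh15 (111416). Mymk, whose product drives fusion, also carried H3K18la (55233). The H3K27me3 genes were Chrdl2 (104530), Calcr, the calcitonin receptor of quiescent satellite cells (75228), and Igf2 (32814).

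Contractile genes carried H3K18la more often than genes at large and H3K27me3 about as often. Of 48 sarcomere and contraction genes, 13 (27.1%) were H3K18la-only, 5 (10.4%) H3K27me3-only and 30 had neither, against 10.7% and 12.2% of all protein-coding genes with 1 mark alone. H3K18la lay at Myom1 (370040), Xirp1 (365577), Jph2 (234384), Tnnt2 (148226), Ttn (83574), Des (76023) and, among myosin heavy chains, Myh1 (49736) and the embryonic Myh3 (31397). H3K27me3 lay at the slow myosin Myh7 (67735), the fast myosin Myh2 (19601), Mybpc2 (30801), Cacna1s (26445) and skeletal actin, Acta1 (15469). Thus Myh1 and Myh2, neighbours in 1 myosin cluster on chromosome 11, carried different marks. Their totals were below the medians over protein-coding genes with the mark, 63108 for H3K18la and 43633 for H3K27me3. Both genes had neither mark with the 5000 strongest peaks of each list. At Myh3 the H3K18la promoter peak and the nearest H3K27me3 peak were 8084 bp apart.

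Lists of immediate early, extracellular matrix, cell cycle and glycolysis genes had H3K18la alone more often than all protein-coding genes (10.7%). They had H3K27me3 alone less often (against 12.2%), with at most 2 such genes in a list, and this was not tested. Of 26 immediate early and AP-1 genes, 19 (73.1%) were H3K18la-only and 1, Egr2 (15936), was H3K27me3-only. H3K18la lay at Junb (239449), Jun (236262), Fosl1 (157963), Fos (101402), Fosb (76731) and Fosl2 (76270), which encode subunits of the dimeric factor AP-1, and at Mafk (548921) and Klf6 (542451). Of 42 extracellular matrix and fibroblast genes, 26 (61.9%) were H3K18la-only, among them Vim (458619), Sparc (282646), Mmp2 (270226), Thbs1 (259932) and the collagen IV pair Col4a1 and Col4a2, which share 1 peak (184525). Pdgfra, a marker of fibroblasts and fibro-adipogenic cells, carried H3K27me3 (74032), as did Col6a2 (56638), and Col15a1 carried both marks. Of 40 cell cycle genes, 15 were H3K18la-only, with Ccnd1 (189298), Cdk6 (130466) and Myc (102570) among them, 2 were H3K27me3-only (Mycn at 58739 and Cdkn1c at 16528), and Ccnd2 carried both. Of 28 glycolysis and lactate genes, 9 were H3K18la-only and none carried H3K27me3, with Eno1 (158533), Gapdh (123141) and Pkm (102640) the strongest. Lactate dehydrogenase genes Ldha and Ldhb had neither peak.

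Against 10.7% and 12.2% of all protein-coding genes, the lists of ribosomal protein, olfactory receptor and chromatin genes had few H3K27me3-only members, and the H3K18la-only shares of the chromatin lists were near or above that of all genes. Of 79 cytosolic ribosomal protein genes, 6 (7.59%) were H3K18la-only and 2 (2.53%) H3K27me3-only, and 71 had neither peak. Of 1407 olfactory receptor genes, 12 (0.853%) were H3K18la-only and 38 (2.70%) H3K27me3-only. Of 29 Polycomb and H3K27 demethylase genes, 3 (10.3%) were H3K18la-only (Aebp2, Kdm6b and Phc2) and 1 was H3K27me3-only (Phf19). Of 20 histone acyl writers and erasers, 3 (15%) were H3K18la-only, all class IIa deacetylases (Hdac4, Hdac5 and Hdac7), and the fourth such gene, Hdac9, was H3K27me3-only.

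Developmental regulators of other lineages carried H3K27me3. Of 63 neural and endoderm transcription factors, 52 (82.5%) were H3K27me3-only and 2 (3.17%) were H3K18la-only, against 12.2% and 10.7% of all protein-coding genes. Their median total signal was 271812, against 43633 over all protein-coding genes with H3K27me3, and the strongest were Hand2 (707933), Pax5 (642420), Emx1 (635026), Lhx1 (569515) and Lhx3 (561029). The 2 exceptions, Dlx1 (43548) and Dlx2 (52837), are neighbours on chromosome 2, and an H3K18la peak of 621666 had its maximum 47.9 kb upstream of Dlx2. Dlx5 and Dlx6, their paralogues, shared an H3K27me3 peak of 460393. The mesenchyme and limb factors were split, with 19 of 61 (31.1%) H3K18la-only and 20 (32.8%) H3K27me3-only, both above the same shares of all genes. H3K18la lay at Zeb2 (236721), Prrx2 (130715), Sox9 (60433), Snai2 (59337) and Runx2 (51131). H3K27me3 lay at Lmx1b (730964), Alx4 (542114), Foxf1 (410715), Tbx5 (244688), Sox6 (130355) and Twist1 (19828).

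Secreted signals of development had more genes with H3K27me3 alone than the 12.2% of all protein-coding genes in each of 3 families, whereas their H3K18la-only shares (5.26% of Wnt, 13.6% of FGF and 14.3% of TGF-beta and BMP genes) lay nearer the 10.7% of all genes. Of 19 Wnt ligands, 15 (78.9%) were H3K27me3-only, led by Wnt3a (361640), Wnt10a (245464) and Wnt7a (240842), and Wnt9a alone carried H3K18la (55504). Of 22 FGF ligands, 10 (45.5%) were H3K27me3-only, 9 neither and 3 H3K18la-only, the latter being Fgf7 (313964), Fgf11 (176523) and Fgf1 (106158). Of 35 TGF-beta and BMP family ligands and inhibitors, 20 had neither peak and 10 (28.6%) were H3K27me3-only, with Bmp7 (127019), Bmp4 (10161) and Nodal (21168) among them. The 5 with H3K18la were Smad7 (211498), Inhba (199197), Grem1 (65613), Gdf15 (46305) and Tgfb3 (40429).

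**Figure D1:**
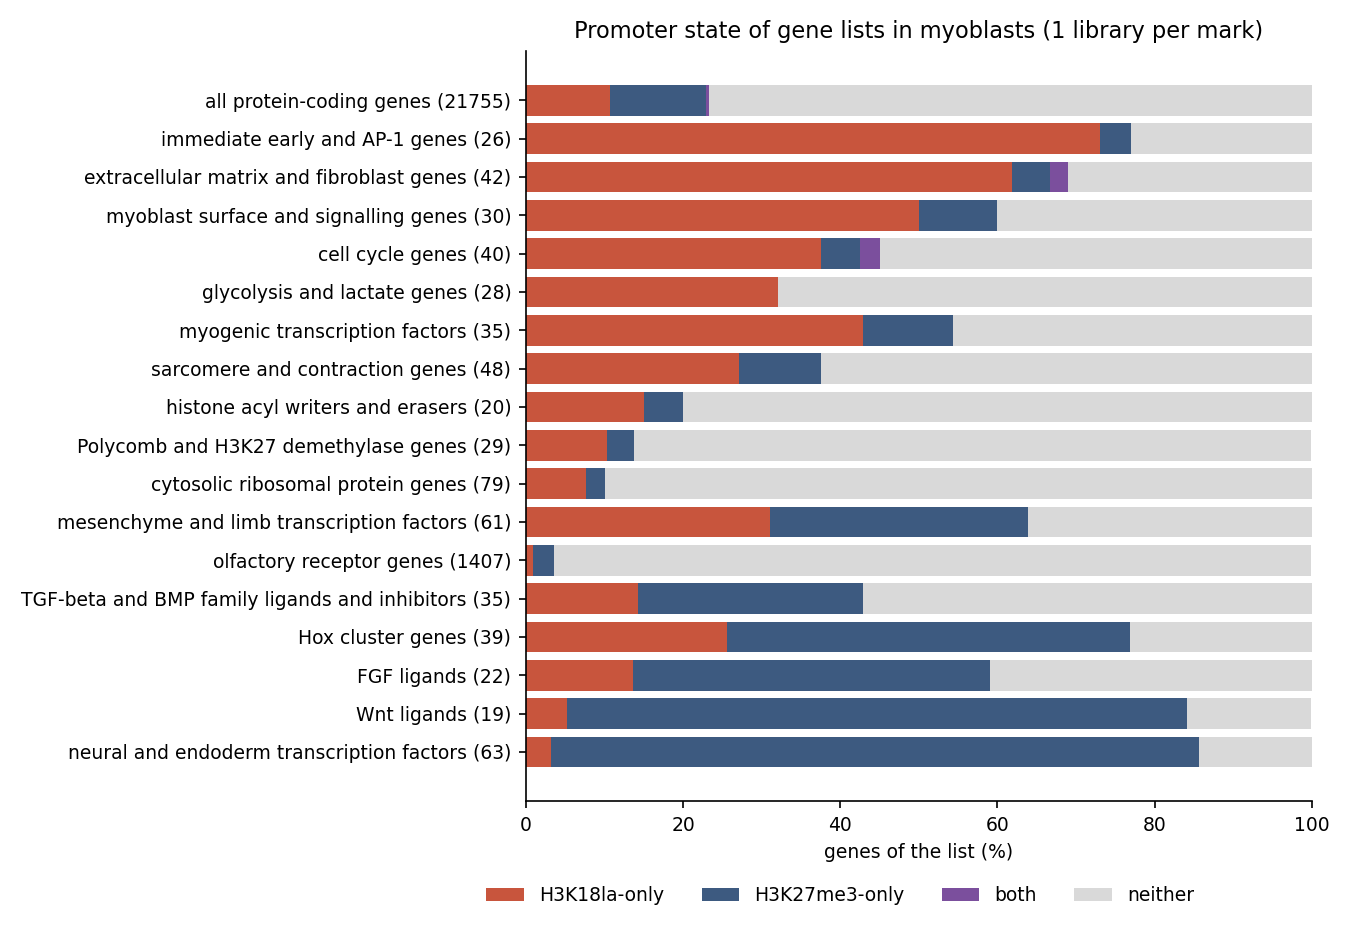
Share of each gene list (%, horizontal axis) that was H3K18la-only, H3K27me3-only, both or neither in myoblasts, with all protein-coding genes for comparison; each bar is 1 list and its coloured parts sum to the whole list. The immediate early genes have the longest H3K18la part (73.1%) and the neural and endoderm list, which also holds mesoderm factors, the longest H3K27me3 part (82.5%), against 10.7% and 12.2% of all protein-coding genes.

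The Hox clusters differed in which mark they carried. Of 39 Hox genes, 20 (51.3%) were H3K27me3-only and 10 (25.6%) H3K18la-only, against 12.2% and 10.7% of all protein-coding genes. All 10 HoxB genes, on chromosome 11, and all 9 HoxD genes, on chromosome 2, were H3K27me3-only. Chromosome 2 is the one with an excess of called bases. In HoxA, 6 of 11 genes were H3K18la-only (among them Hoxa9, Hoxa10 and Hoxa11), 1 was H3K27me3-only (Hoxa13) and 4 had neither peak. In HoxC, 4 of 9 genes were H3K18la-only and none carried H3K27me3. Hoxc5 and Hoxc6 had neither mark when only TSS of protein-coding transcripts were counted. Hoxa3, Hoxa7, Hoxa9, Hoxa10 and Hoxa11 had neither with the 5000 strongest peaks of each list. The HoxB peak was the widest and the strongest of the H3K27me3 list, with 97610 bp at chr11:96249867-96347476 and a total signal of 1454652 over Hoxb3 to Hoxb9. In HoxA the change from one mark to the other took place between Hoxa11 and Hoxa13, where 16463 bp separated the last H3K18la peak (chr6:52241338-52245036) from the first H3K27me3 peak (chr6:52261500-52270363).

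By total signal of the promoter peak, the strongest H3K18la-only genes included Ccn4, a matricellular Wnt target (21400 bp, total 1383747), 2010111I01Rik (921990), Lgals3 (877020), Id1, Syne3 (854948), Nanos3 (822065), Ahnak (784669), lamin A, Lmna (742535), and Cdk5r1 (704030). The 10 strongest H3K27me3-only entries were the HoxB peak, Hoxb13 (931767), Lhx4 (853825), the pair Ccm2l and Xkr7 (789951), the pair Nr2e1 and Ostm1 (753777), the HoxD peak over Hoxd3 and Hoxd4 with Gm28230 (735202), Lmx1b, Hand2, Dmbx1 (671902) and Pax5. Homeobox or other developmental transcription factor genes were thus present in 9 of these 10 entries, the exception being the pair Ccm2l and Xkr7. An entry counted if any 1 of its genes was of this kind, and the share of such genes over all genes was not counted. The pair Ccm2l and Xkr7, the HoxD peak and Lmx1b lay on chromosome 2. Genes with both marks, ranked by the smaller of their within-list percentiles, were led by Gm10800, Lgr6, Nav2, Frmd4a, Upp2, Abca4, the pair Gm10717 and Gm10718, Gm10801, Cdh23 and Mogat1, of which the 4 predicted genes had overlapping peaks, Abca4 had them apart in 1 window, and the others had them at different TSS. The widest H3K18la peak, of 24899 bp at chr1:40834387-40859285, lay inside Tmem182 and reached no promoter. Of the 5 widest H3K18la peaks 2 reached a promoter of a protein-coding gene, those at Cdk5r1 and Ccn4, and of the 5 widest H3K27me3 peaks 4 did.

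Around single genes the peaks of the marks lay side by side. At Myod1 the promoter peak (chr7:46374901-46381150, maximum 101) was lower than H3K18la peaks upstream of it, whose maxima lay 26.2, 34.9 and 61.1 kb before the start and reached 334, 246 and 118. The first H3K27me3 peak began 12708 bp after the end of the promoter peak and had a maximum of 25. At Pax7 the order was turned around. An H3K27me3 peak inside the gene (chr4:139824803-139831558, 6756 bp, maximum 33) reached the 2000-bp window of the start, though not a window of 1000 bp, with which Pax7 had neither mark, and 6 H3K18la peaks lay within and beyond the gene, with maxima from 36 to 145 kb after the start, the nearest 21116 bp from any H3K27me3 peak. Lgr6, a receptor for R-spondins, had 1 H3K18la peak (8897 bp, maximum 195) in a row of 12 H3K27me3 peaks. Within 60 kb of Frmd4a, a gene with 19 separate TSS, there were 28 H3K27me3 and 13 H3K18la peaks, and the marks occupied different ends, apart from H3K27me3 at the far 3′ side.

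**Figure D2:**
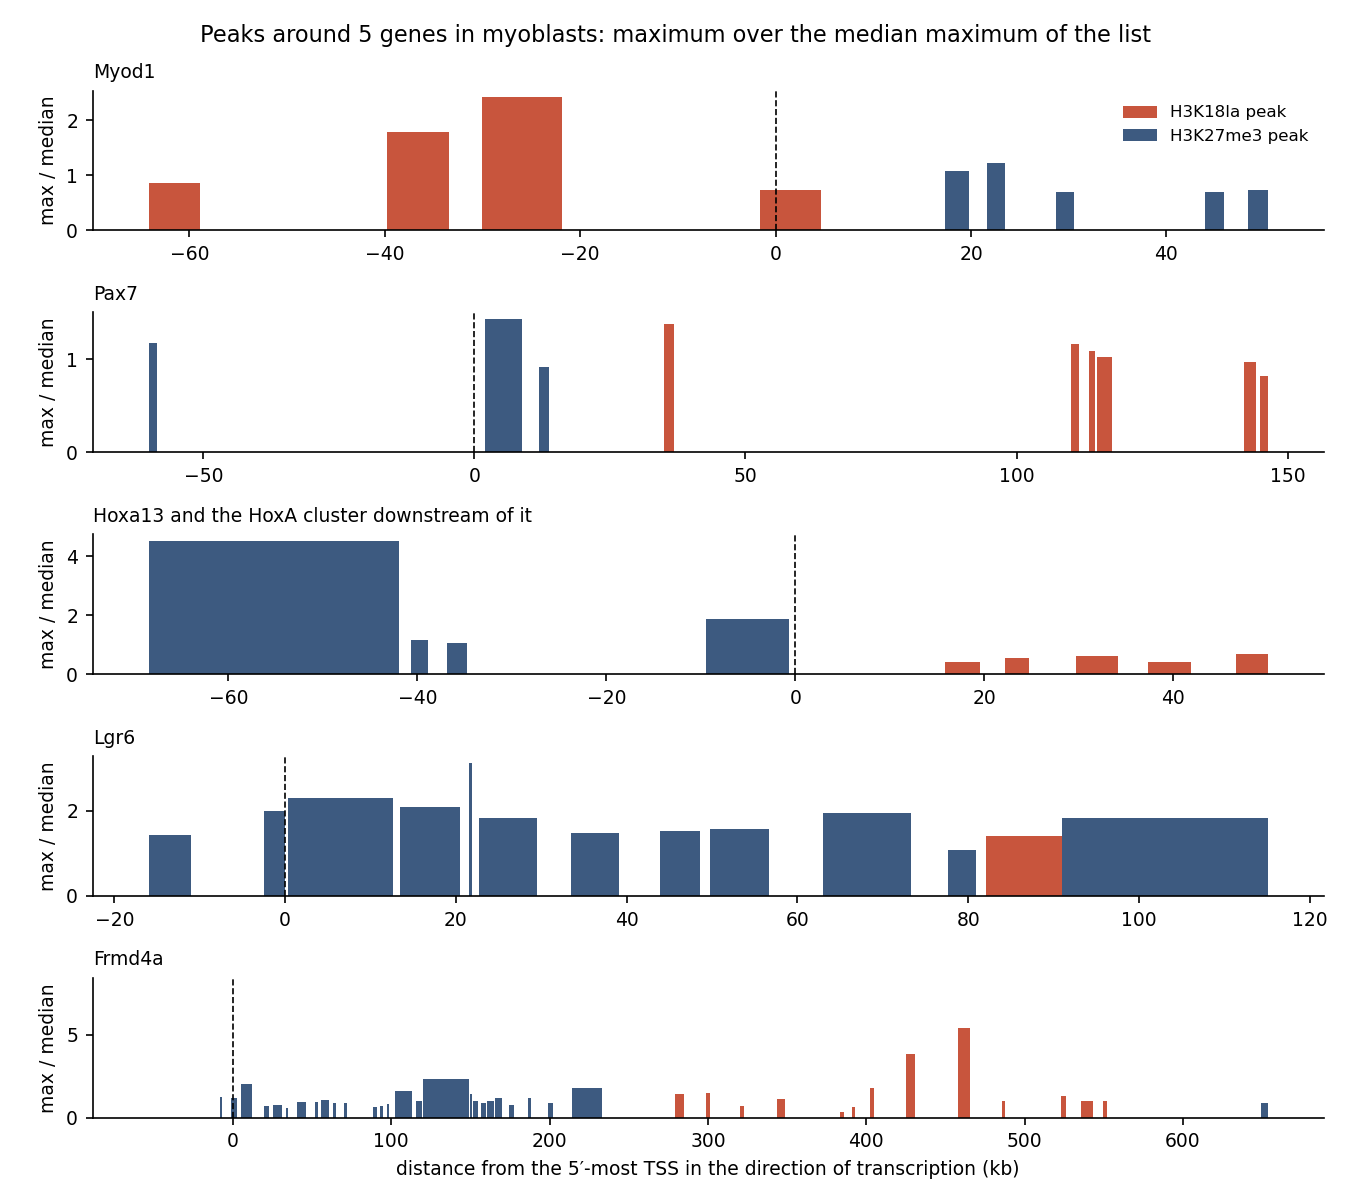
Peaks of both marks around Myod1, Pax7, Hoxa13, Lgr6 and Frmd4a in myoblasts: horizontal axis, distance from the 5′-most TSS in the direction of transcription (kb); vertical axis, maximum signal divided by the median maximum of the same list; 1 bar per peak, drawn to its width. The Myod1 start lies under H3K18la with H3K27me3 to its right, the Pax7 start lies beside H3K27me3 with H3K18la to its right, and none of the bars of one mark overlaps a bar of the other.

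The 109 genes with both marks mostly did not carry them at the same start. In 73 (67.0%, 57.7 to 75.1%) each mark lay at TSS of its own, in 11 (10.1%) both lay within 1 TSS window without touching, and in 25 (22.9%, 16 to 31.7%) peaks of the marks overlapped. Of the 85 protein-coding genes, 69 had the marks at different TSS, 7 in 1 window but apart and 9 overlapping. Of those 9, 6 were predicted genes (Gm10717, Gm10718, Gm10722, Gm10800, Gm10801 and Gm21738) whose shared regions were called in all 14 of the lists compared below. Such repeated sequence has near-identical copies, and its reads cannot be placed with certainty. Gm21190, another predicted gene, and Sfi1 shared regions called in 7 and 13 of the 14 lists. The last was Bdnf, a neurotrophin gene with 9 TSS windows, where 648 bp were shared (chr2:109674710-109675357) and the region was called in 10 of the lists. At Bdnf the H3K27me3 peak was low (maximum 18), and the highest of the H3K18la promoter peaks reached 295. The 7 genes with the marks apart in 1 window were Abca4 (384 bp between the peaks), Jag1 (1018), Elfn1 (1854), Ccnd2 (1865), Chst1 (2301), Lcn5 (3019) and Ccdc187 (3686). Jag1 encodes a Notch ligand and Ccnd2 a D-type cyclin. These shares depend on the TSS counted, since with 1 TSS per gene 32 genes carried both marks, 68.8% of them with overlapping peaks.

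Where the marks lay at different starts, H3K27me3 was usually at the upstream one. This was so in 55 of 69 protein-coding genes, with H3K18la upstream in 14. The nearest pair of differently marked TSS was between 2240 and 758000 bp apart, with a median of 73317 bp (quartiles 25761 and 147646). The 5′-most start of the gene carried H3K27me3 in 46, H3K18la in 9 and neither in 14. In genes with 1 mark only and starts similarly spread, that mark lay at the 5′-most start in 76.3% (73.9 to 78.6%) of 1301 H3K27me3-only and 64.1% (61.6 to 66.5%) of 1480 H3K18la-only genes. A CpG island lay at the H3K27me3-marked start in 53 of the 69 (76.8%, 65.6 to 85.2%) and at the H3K18la-marked start in 14 (20.3%, 12.5 to 31.2%). A protein-coding transcript began at the H3K27me3-marked start in 91.3% and at the H3K18la-marked start in 62.3%. Examples were Ank1, an ankyrin with muscle isoforms from an internal promoter, with H3K18la 163894 bp downstream of H3K27me3, the imprinted adaptor Grb10 (98785 bp), Lgr6 (83185 bp), the chromatin remodelling subunit Smarcd3 (21124 bp), the intermediate filament gene Synm (19090 bp), Col15a1 (15435 bp) and the Hedgehog receptor Ptch1 (7725 bp). The order was the opposite at Anks1b (758000 bp) and Upp2 (181649 bp). In Col15a1 an H3K18la peak inside the gene and away from its TSS windows shared 535 bp with H3K27me3 (chr4:47292419-47292953).

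**Figure D3:**
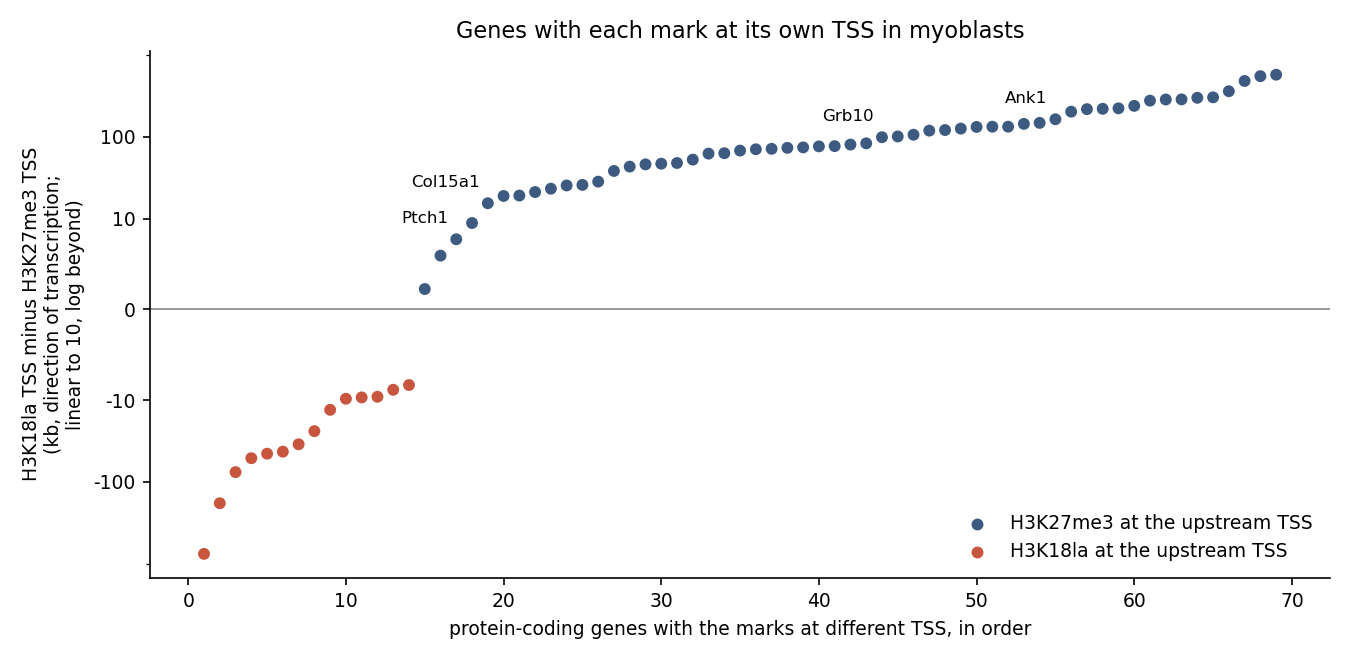
Position of the H3K18la-marked TSS relative to the nearest H3K27me3-marked TSS of the same gene (kb along transcription, linear to 10 and logarithmic beyond) for the 69 protein-coding genes with the marks at different TSS, in order of that distance; 1 point per gene. H3K27me3 lies upstream in 55 genes (points above 0) and H3K18la in 14 (points below).

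Across the genome the peaks hardly met. Of 13550 H3K18la peaks, 38 overlapped an H3K27me3 peak by at least 1 bp (0.280%, 0.204 to 0.385%), as did 38 of 13892 H3K27me3 peaks (0.274%, 0.199 to 0.375%). They shared 42031 bp, against 842282 bp from the product of the covered shares of the genome, a 0.0499-fold enrichment. Without chromosome 2 the value was 0.0513-fold, with 30 overlapping peaks of each mark. Much of what was shared is sequence called in nearly every list. Of the 38 shared regions, 15 were called in all 14 H3K18la and H3K27me3 lists of the 7 cell types compared here, and a median of 85.1% of their bases were repeats. A further 9 were called in 10 to 13 lists, and 7 in at most 4. The regions with the most shared bases were chr1:24613126-24616182 (3057 bp, predicted genes such as Gm28437), a region of chromosome 18 near Slc6a7 (2809 bp), chr17:39846213-39848220 (2008 bp, Gm42418 and other predicted genes), chr11:3146025-3148008 (1984 bp, Sfi1) and chr5:104330568-104332464 (1897 bp, near Mepe), called in 11 to 14 of the lists. Without the 15 peaks of each mark met in all lists, 23 peaks of each overlapped, the shared bases fell to 0.0358-fold, and 99 genes carried both marks.

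Peaks of the same mark tended to follow one another. The median distance from an H3K18la peak to the nearest H3K27me3 peak was 207627 bp (quartiles 83962 and 500675), and from an H3K27me3 peak to the nearest H3K18la peak 112427 bp (55729 and 198015). Only 2.44% of H3K18la peaks and 3.02% of H3K27me3 peaks lay within 10000 bp of the other mark. In chromosome order, the next peak was of the same mark in 83.5% of 27422 neighbouring pairs, where the shares of the lists alone would give 50%. H3K18la peaks formed 2279 unbroken runs with a mean of 5.95 peaks, and H3K27me3 peaks 2275 runs with a mean of 6.11. The median run held 3 peaks for each mark, and 26.2% of H3K18la and 24.4% of H3K27me3 runs were single peaks. Runs of at least 10 peaks held 54.8% of H3K18la and 56.6% of H3K27me3 peaks. The H3K18la run with the most peaks, 73 over 7746 kb at chr10:95085176-102830858, spanned Dcn, Lum, Kera and Epyc, which encode small leucine-rich proteoglycans, with Btg1, Dusp6, Socs2 and Kitl. The H3K27me3 run with the most peaks, 61 in 989 kb at chr2:164537728-165526505, spanned the Wfdc and Spint genes of protease inhibitors with Mmp9, Cd40 and Slc12a5. The next by number of peaks held 47 over 2488 kb at chr16:34898642-37386356, with Adcy5, Casr and Mylk among its genes. Another, of 44 peaks at chr2:74600082-75594880, held the HoxD cluster, Evx2 and Mtx2. The H3K27me3 runs of 61 and 44 peaks lay on chromosome 2, the chromosome with an excess of called bases.

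Of the 7 cell types with peak lists for both marks, MB had the fewest shared bases for its coverage. The fold enrichment was 0.261 in MT, 0.288 in bone marrow-derived macrophages (BMDM), 0.429 in embryonic stem cells kept in 2i medium (ESC-2i), 0.476 in gastrocnemius muscle (GAS), 1.51 in post-ischemia macrophages (PIM) and 2.67 in embryonic stem cells kept in serum (ESC-ser). Apart from BMDM, these lists were each made from 2 pooled libraries, and they covered between 22.6 and 173 Mb. With the 5000 strongest peaks of each list, MB remained lowest at 0.0379, followed by MT at 0.137, with PIM at 1.05 and ESC-ser at 2.21. Genes with both marks were 1.63% of all genes in MT, 0.607% in BMDM, 2.46% in GAS, 2.54% in ESC-2i, 3.57% in PIM and 4.52% in ESC-ser. Divided by the product of the shares of the marks, the value was 0.315 in MB, 0.424 in BMDM, 0.464 in MT, 0.597 in GAS, 0.637 in ESC-2i, 0.924 in PIM and 1.25 in ESC-ser. Median distances from H3K18la to H3K27me3 were 103102 bp in MT and 47402 bp in ESC-ser. GAS is a tissue of many cell types, in which both marks in 1 cell and the marks in different cells cannot be told apart. With 1 list a cell type, these differences were not tested.

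**Figure D4:**
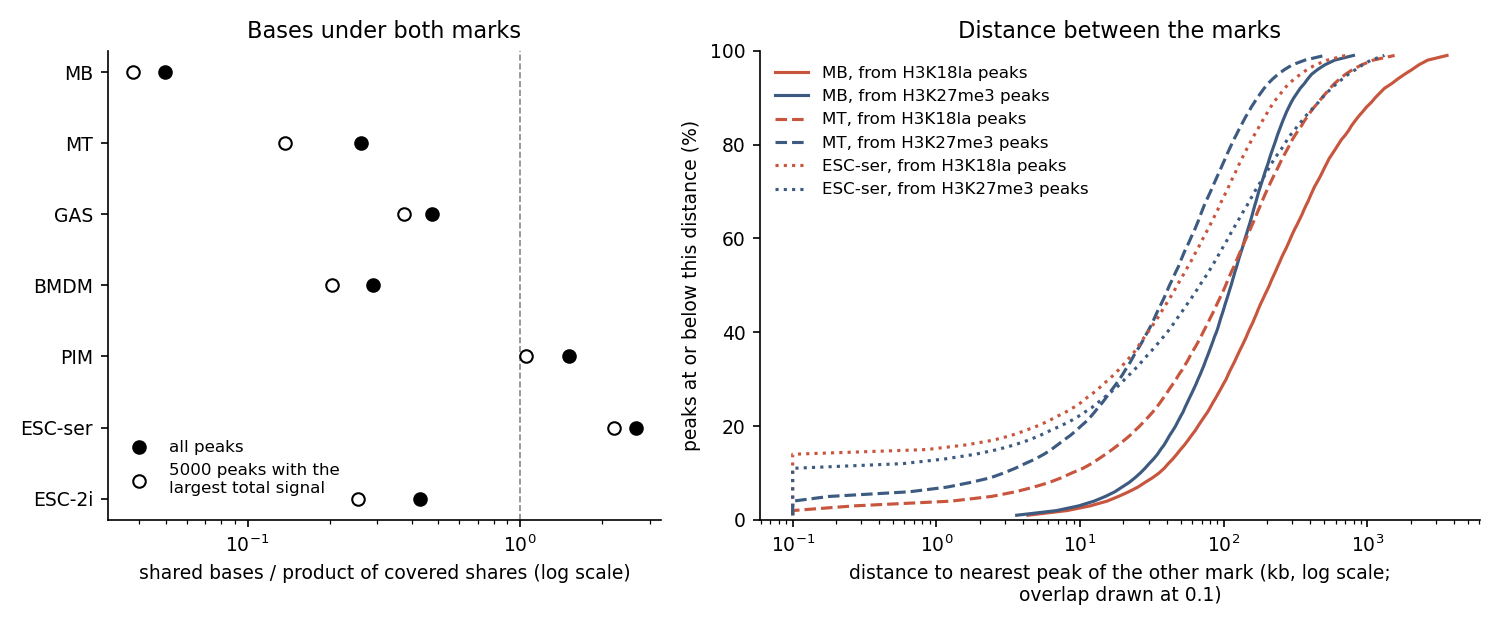
Left, fold enrichment of bases shared by H3K18la and H3K27me3 peaks in 7 cell types (log axis; filled points, all peaks; open points, the 5000 peaks with the largest total signal). Right, cumulative share of peaks (%) by distance to the nearest peak of the other mark (log axis, kb) in MB, MT and ESC-ser, from each mark. MB has the lowest points (0.0499 and 0.0379), and its median distances, 207627 and 112427 bp, are longer than those of MT and ESC-ser from the same mark.

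The MB states were largely kept in MT, the cells that myoblasts form. Of 3991 H3K18la-only genes, 89.8% had H3K18la in MT and 2.48% had H3K27me3, against 23.0% and 15.2% of all genes, and of 4436 H3K27me3-only genes, 93.0% had H3K27me3 in MT and 9.74% had H3K18la. The marks were exchanged entirely at few genes. From H3K18la-only to H3K27me3-only there were 11 genes (0.276%), where 13.6% of all genes were H3K27me3-only in MT. Of the 11, 7 were protein-coding (Adam22, Galntl6, Gm21149, Rhox2a, Rhox2b, Sgk2 and Speer4d, of which Gm21149, the Rhox2 pair and Speer4d have near-identical copies). From H3K27me3-only to H3K18la-only there were 86 (1.94%), 59 of them protein-coding, where 21.4% of all genes were H3K18la-only in MT. Among the 59 were skeletal actin, Acta1, the membrane repair gene Dysf, the muscle ubiquitin ligase Trim63, Cox6a2, the fatty acid carrier Fabp3, and acetylcholinesterase, Ache, with Bmp4, Chrd and Egr2. These names were picked, and the 59 also held genes such as Opn4, Mc4r, Cd33, Mmp8 and Lad1. The MT lists were longer than the MB lists (137 and 173 Mb), and whether a mark listed in MT alone lay under the threshold in MB was not tested. Chromosome X held 2.44% of H3K27me3 peaks in MB and 7.71% in MT, against 6.49% of the genome, and the source of this difference was not tested. The H3K27me3 calls of Acta1, Bmp4, Chrd and Egr2 in MB were weak, since each was lost when both lists were held to equal called bases. The calls of Dysf, Trim63, Cox6a2, Fabp3 and Ache were not checked in this way.

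In the other cell types some H3K18la-only genes of MB carried H3K27me3. The share was 13.2% in GAS, 16.5% in BMDM, 21.3% in ESC-2i, 26.0% in PIM and 27% in ESC-ser, against 17.7%, 12.9%, 16.4%, 16.9% and 17.6% of all genes in the same lists, so that it lay below that of all genes in GAS and above it in the others, with the largest differences in PIM and ESC-ser. These sets differ in kind, since 40.4% of all genes and 58.5% of the H3K18la-only genes are protein-coding, and the factors below are protein-coding. Shares over protein-coding genes alone are not given for the other cell types. The 15 myogenic factors that were H3K18la-only in MB all had H3K18la and none had H3K27me3 in MT. Of the same 15, 7 had H3K27me3 in GAS, 9 in BMDM, 12 in PIM, 9 in ESC-ser and 7 in ESC-2i, and 14, 4, 6, 9 and 10 had H3K18la there, with both marks at 6 of them in GAS. Of all genes, 23.3% had H3K18la in GAS, 11.1% in BMDM, 22.8% in PIM, 20.6% in ESC-ser and 24.3% in ESC-2i, and 2.46% had both in GAS. The 10 H3K18la-only Hox genes of MB all carried H3K27me3 in BMDM, PIM and ESC-ser, as did 9 in ESC-2i, 4 in GAS and none in MT. H3K18la was found at 9 of the 10 in GAS, 7 in MT, 6 in ESC-2i and 1 in each of the others, where the shares of all genes are those just given and 23.0% in MT. By contrast, the 52 members of the neural and endoderm list with H3K27me3 in MB had it in all 52 cases in MT, GAS, BMDM, PIM and ESC-ser and in 50 in ESC-2i. H3K18la was found at 15 of them in ESC-ser and 13 in ESC-2i, against 20.6% and 24.3% of all genes in these lists, and at none in the differentiated cells. Over all genes, 1548 of the H3K27me3-only genes (34.9%) had H3K27me3 in all 6 other cell types, and 874 of the H3K18la-only genes (21.9%) had H3K18la in all 6, against 3.42% and 3.51% of all genes.

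The DNA under the peak maxima was read for 5 motifs, and the sequences below are examples of what was searched. Each is the 150 bases centred on the maximum of 1 of the 3 strongest peaks of each list that met no TSS window of any annotated gene, coding or not, and no peak of the other mark (GRCm38, plus strand). Capitals mark the AP-1 motif TGANTCA or the E-box CAGCTG, the site type bound by MyoD. The first 3 are H3K18la peaks, in Cubn, upstream of Cd44 and in Tmem182, and the last 3 are H3K27me3 peaks, upstream of Nmi, in Nav2 and in Cfap77.
H3K18la, in Cubn, chr2:13413584-13413733, plus strand: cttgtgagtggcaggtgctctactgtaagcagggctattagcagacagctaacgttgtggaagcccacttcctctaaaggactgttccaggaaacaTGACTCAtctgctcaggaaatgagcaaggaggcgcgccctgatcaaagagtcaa
H3K18la, upstream of Cd44, chr2:102937027-102937176, plus strand: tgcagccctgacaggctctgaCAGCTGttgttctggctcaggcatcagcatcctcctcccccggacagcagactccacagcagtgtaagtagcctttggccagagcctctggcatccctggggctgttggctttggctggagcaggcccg
H3K18la, in Tmem182, chr1:40840662-40840811, plus strand: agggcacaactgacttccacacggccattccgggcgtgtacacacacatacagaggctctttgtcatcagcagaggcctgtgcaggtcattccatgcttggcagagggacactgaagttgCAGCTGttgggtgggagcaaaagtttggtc
H3K27me3, upstream of Nmi, chr2:51989765-51989914, plus strand: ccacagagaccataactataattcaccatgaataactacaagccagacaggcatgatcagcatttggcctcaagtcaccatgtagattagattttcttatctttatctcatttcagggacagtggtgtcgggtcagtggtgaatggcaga
H3K27me3, in Nav2, chr7:48993512-48993661, plus strand: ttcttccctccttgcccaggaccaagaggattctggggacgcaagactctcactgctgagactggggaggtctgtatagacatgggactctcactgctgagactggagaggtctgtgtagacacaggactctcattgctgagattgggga
H3K27me3, in Cfap77, chr2:29004249-29004398, plus strand: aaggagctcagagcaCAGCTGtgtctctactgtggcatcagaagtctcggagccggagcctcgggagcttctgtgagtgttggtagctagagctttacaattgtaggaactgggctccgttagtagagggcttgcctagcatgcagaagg
The Cubn peak was 19547 bp wide with a total signal of 1676714, and its maximum held 1 AP-1 motif. The maxima near Cd44 and in Tmem182 each held 1 E-box, as did the H3K27me3 maximum in Cfap77, and the H3K27me3 maxima near Nmi and in Nav2 held neither motif. Neither motif was found at the maxima of the 2 H3K18la peaks nearest upstream of Myod1. The difference between the marks therefore rests on the lists and not on these examples.

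Over the lists, 300-bp windows at the maxima were searched for 5 motifs on both strands. TGANTCA was found in 58.3% (57.3 to 59.3%) of 9833 H3K18la peaks away from promoters and in 45.9% of 3717 at promoters. It was found in 7.99% (7.45 to 8.57%) of 9107 H3K27me3 peaks away from promoters and in 7.42% of those at promoters. Of all 32851 RefSeq promoters, which are also 300 bases long, 7.81% held it, and of all 8530872 windows of that length tiled over the chromosomes 8.84%. The H3K27me3 shares were thus near those of the genome. CAGCTG was found in 29.1% of H3K18la maxima away from promoters and 16.8% of those of H3K27me3, against 16.3% of RefSeq promoters and 10.6% of tiles. GGAATG, the core bound by TEAD factors, was found in 28.3% and 16.5% (14.7% of promoters, 15.9% of tiles), and TGTGGT, the core bound by RUNX factors, in 35.7% and 23.5% (16.8% and 20%). The CRE, TGACGTCA, of which neither it nor the AP-1 motif contains the other, was rare at both marks (0.488% and 0.110%, with 1.79% of promoters and 0.163% of tiles). With all H3K18la peaks ranked by total signal and divided into 4 groups of equal size, the AP-1 motif was found in 49.9% of the weakest group and 60.3% of the strongest. In the other cell types it was found in 35.3% (MT), 32.9% (PIM), 29.2% (BMDM), 14.2% (GAS), 13.4% (ESC-2i) and 13.2% (ESC-ser) of H3K18la maxima away from promoters, and in 7.77 to 11.3% of those of H3K27me3. These are matches of letters, and no binding was measured.

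**Figure D5:**
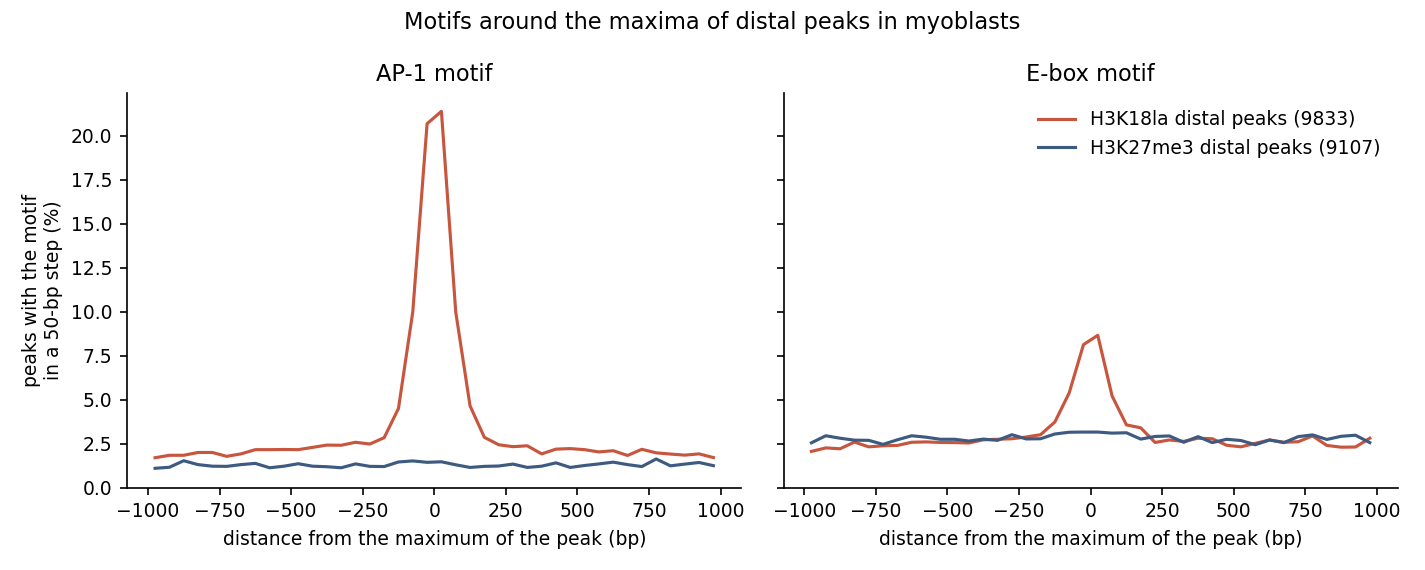
Share of peaks away from promoters (%) with the AP-1 motif (TGANTCA) and the E-box (CAGCTG) in each 50-bp step within 1 kb of the maximum signal, for 9833 H3K18la and 9107 H3K27me3 peaks in myoblasts; 1 line per mark. The AP-1 line of H3K18la reaches 20.7 and 21.4% in the central steps, against 2.18% in the step that begins 550 bp before the maximum, and that of H3K27me3 stays between 1.11 and 1.64%.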

How the data were processed

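The authors trimmed reads (Trim Galore 0.6.6), aligned them to mm10 (Bowtie2 2.4.4), made fragment coverage (bedtools 2.30) and called peaks with SEACR 1.3 in stringent mode, keeping the top 1% of regions; the versions are those of the submitters' processing notes. Duplicate removal is not given in the sources used here. The deposited lists hold, per peak, the signal (fragment coverage) summed over its bases and its maximum, not scaled for depth; read depth was not used here. The MB lists came from 1 library a mark, and the lists of other cell types, except BMDM, from pooled replicates.

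Peaks were set against TSS of 139486 transcripts (GENCODE vM21, 130677 windows of 2000 bp on either side) and 20120 CpG islands called from the sequence (at least 200 bp, 50% GC, observed over expected CpG of 0.6), in Python 3.11.15 with pandas 2.3.3 and numpy 2.4.6. The code was tested on simulated data. Groups came from GEO's labels. Of 24 deposited lists 14 were used. Genes were named as members of fixed lists, as the 10 strongest protein-coding genes of each class (for both, by the smaller of the within-list percentiles), as the 5 regions with the most shared bases and as the 5 widest peaks of each mark. Other genes were chosen after their values were seen, as were the loci drawn, the genes with marks at different TSS and the exchanges with MT that are named. Members and lists were chosen with earlier results of these data known. RefSeq promoters matched 75.6% of genes, so a comparison of their CpG content between classes was void and is not given. Values of a few genes that these rules name are not reported here.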

Additional observations from a re-analysis of the deposited data

How the results depend on the processing

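The gene counts per state, the share with overlapping peaks, island shares, peak overlap, shared bases and distances were recomputed, each where the setting applies, with windows of 1000 bp, TSS of protein-coding transcripts only, 1 TSS per gene, the 5000 strongest peaks of each list, equal called bases, or an overlap of at least 200 bp, and, chosen after seeing the data, without chromosome 2, without the peaks met in all 14 lists and, for the AP-1 shares, with 100-bp motif windows. Runs, TSS order, states in other cell types and the other motifs were computed in 1 setting. Of 79 recomputed values, 47 stayed within the counting interval or, for counts of genes, within 1.5 times. No test was possible, so no call could change, and shared bases stayed below those of the product of shares in each setting tried. With TSS of protein-coding transcripts there were 2080 H3K18la-only, 2531 H3K27me3-only and 54 genes with both, and with the 5000 strongest peaks 1696, 2815 and 34, as fewer TSS or peaks enter. With 1 TSS per gene 32 genes carried both. Overlapping peaks made up 14.8% (TSS of protein-coding transcripts), 68.8% (1 TSS per gene), 47.1% (5000 strongest) and 15.2% (without the peaks met in all lists) of genes with both, so this share depends on the TSS counted. CpG island shares moved to 69.3% (1 TSS) and 72.0% (5000 strongest) for H3K18la-only, to 71.6% (5000 strongest) and 69.5% (equal bases) for H3K27me3-only, and to 35.7% (1 TSS) and 66.7% (5000 strongest) for both. Overlapping H3K18la peaks were 0.200% (5000 strongest), 0.162% (equal bases) and 0.170% (without the peaks met in all lists), overlapping H3K27me3 peaks 0.166% and the fold 0.0358 in the last setting. Median distances from H3K18la were 379938 bp (5000 strongest), 305568 (equal bases) and 215683 (without chromosome 2), and from H3K27me3 209166, 109128 and 114642, with 116092 between maxima. In 100-bp windows the AP-1 share was 37.9% at H3K18la and 2.73% at H3K27me3 maxima. Beyond these constructions the cause was not tested. Of 614 listed genes other than olfactory receptors, 314 carried a mark; 197 of these kept their state with the 5000 strongest peaks, 282 with 1 TSS per gene and 297 to 313 in the other settings, and genes that changed state lost a mark and none took the other mark alone in its place. Those that lost H3K27me3 include Pax7 with 1000-bp windows, Acta1 and Egr2 with equal bases, and Myh7 with TSS of protein-coding transcripts. No paired analysis was possible because each mark had 1 library and no result came from a test. Read depth was not used here, replicate error is unknown for both lists, and the threshold of each list sets which promoters count as unmarked.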
